A study of Mus musculus with 10 samples.

Results

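The comparison described here is of mouse embryonic stem (ES) cells that received guide RNAs (gRNAs) against the *Hoxa13* promoter with cells that received control guides, across all genes. It takes in 6 of the 10 expression arrays of the series: the 3 labelled *Hoxa13* activation and the 3 labelled control. All cells were E14 ES cells, a line from the 129/Ola mouse strain, kept in medium with 1000 U/ml Lif, the cytokine that holds ES cells undifferentiated. For the *Hoxa13*-labelled arrays a pool of guide plasmids was transfected together with a plasmid for dCas9-VP160, followed by a day (24 hrs) of selection in puromycin at 2 μg/ml, and RNA was taken 48 hrs after transfection. The control is given in more than one way: the sample labels name control guide RNAs, and the protocol names plasmids with non-targeting guides and dCas9 alone. The paper describes the array comparison as one against dCas9 without VP160. By that account the control lacked the VP160 activation domain as well as the targeting guides, and the 2 cannot be told apart here. The labels call the arrays of a group biological replicates. RNA was labelled with Cy3 and hybridised to one-colour Agilent mouse arrays. The other 4 arrays carry RNA from ES cells given guides against the promoter of *Hottip*, the long non-coding RNA gene next to *Hoxa13*, with dCas9-VP160, and serve below only to show where the *Hoxa13*-labelled arrays differ from them.

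*Hoxa13* is the last gene at the 5' end of the Hoxa cluster and encodes a homeodomain transcription factor of the distal limb and the genital region, with no expression in undifferentiated ES cells. Hox clusters are held silent in ES cells by Polycomb complexes and are opened from the 3' end during development. dCas9-VP160 is a Cas9 that no longer cuts DNA, carrying copies of the transcriptional activator VP16 from herpes simplex virus. It is brought to a promoter by guides that pair with the DNA next to an NGG motif (the PAM), and several guides to 1 promoter are usually combined because a single one often activates weakly.

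Of the 5 guides of the *Hoxa13* pool 3 are shown, because they define the treatment. Each is written 5′ to 3′ with the 20 paired bases in lower case and the PAM of its genomic target in capitals.
guide 2: catacgccgggggcgggccgGGG
guide 4: cgggccgggggcgggccaatGGG
guide 5: cgggccaatgggcggccgccTGG
These match the promoter window of *Hoxa13* in the RefSeq annotation of GRCm38.p6 exactly, on the strand of the gene, which is the minus strand. Guide 2 pairs at chr6:52260925-52260944, from 64 to 45 bases before the start of the gene. Guide 4 pairs at chr6:52260912-52260931, from 51 to 32 bases before it, and guide 5 at chr6:52260901-52260920, from 40 to 21 bases before it, so that neighbouring targets overlap. None of these targets was found exactly in another of the 32851 RefSeq promoter windows of 300 bases each. The last 12 bases of the target followed by NGG were found in 18 windows for guide 2, in 3 for guide 4 and in 1, that of *Hoxa13*, for guide 5. These windows belong to 19 genes, *Hoxa13* included, of which 16 were tested and 0 were called, with log2 differences between -1.09 (*Zbtb21*) and 1.40 (*Wnt4*). Of the 16, 3 were at an unadjusted p under 0.05 in limma, as were 2503 of all 22830 tested probes. So small a count does not set the genes with a matching window apart. A match of this kind is a description of the letters in a window and does not show where the guides bound.

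Levels are given on a log2 scale relative to each array's 75th percentile of the signal, so that 0 is the brightness of a probe at that percentile. A probe was counted as above background where the scanner software marked its spot as well above background. The targeted gene was not above background on any of the 6 arrays. The brighter of the 2 *Hoxa13* probes measured -3.68, -4.80 and -4.31 on the *Hoxa13*-labelled arrays and -5.84, -5.0 and -3.46 on the control arrays. On this scale the groups overlapped, and the highest of the 6 values was that of a control array. The difference was 0.50 (SE 0.59, adjusted p = 0.725 in limma's fit across all tested probes; two-sided exact permutation p = 0.6, where 3 arrays against 3 cannot go below 0.1). The second *Hoxa13* probe gave 0.28 (SE 0.51, adjusted p = 0.829). After quantile normalization the brighter probe differed by 0.36, also with overlap. On the log2 values that the authors deposited both probes were higher on all 3 *Hoxa13*-labelled arrays than on any control array. The brighter probe differed there by 1.195 (SE 0.29, unadjusted p = 0.00199, adjusted p = 0.246 in limma) and the second by 0.61 (SE 0.24, unadjusted p = 0.0316, adjusted p = 0.500), so that neither was called on any of the 3 scales. On the *Hottip*-labelled arrays the brighter probe measured 3.60, 4.16, 3.88 and 3.17 and was above background on all 4, so the probe itself was able to report the transcript. A rise of the targeted gene was thus not called, its direction without overlap rests on 1 of the 3 scales, and its probes were below background in both groups. The treated arrays are therefore named by their label throughout.

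The other Hoxa genes were dim or alike in both groups, and 0 of the 6 tested genes of the cluster were called, with 0 also at an unadjusted p under 0.05 in limma on the 75th percentile scale. *Hoxa9*, above background on all 6 arrays, differed by 0.51 (SE 0.60), with overlapping groups, at a place where the local median was itself 1.23 higher on the *Hoxa13*-labelled arrays. *Hoxa7* differed by 0.41 (SE 0.50). *Hoxa10* and *Hoxa11os*, the antisense transcript at *Hoxa11*, were above background on none of the 6 arrays and differed by 0.16 and 0.43. On the authors' values *Hoxa11os* differed by 0.79 without overlap (adjusted p = 0.482). *Hoxa11*, spotted 10 times on each array, differed by 0.29 and was not above background in either group.

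**Figure D1:**
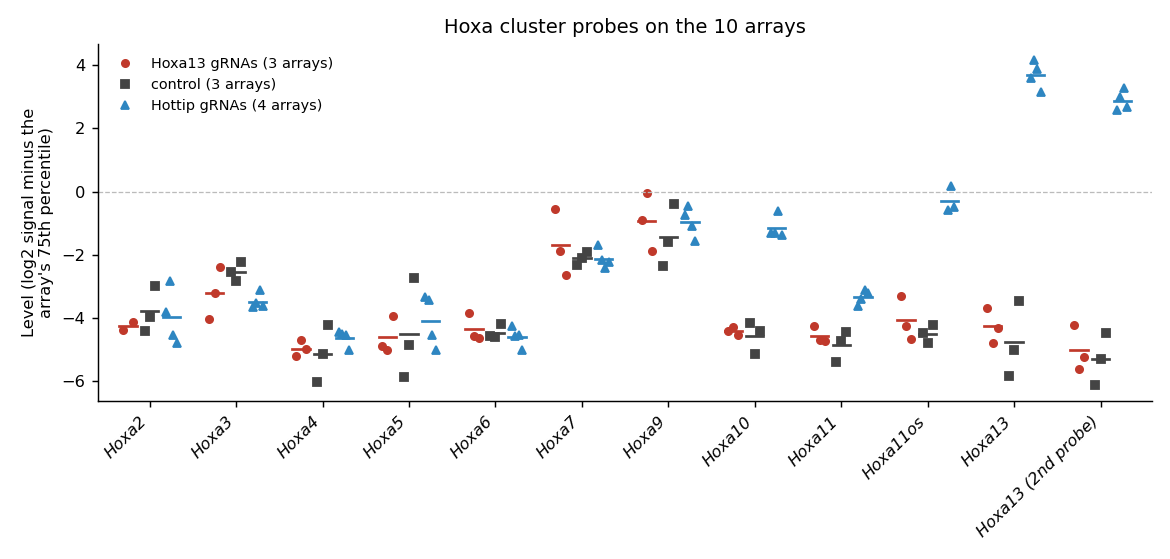
Level of Hoxa probes (1 probe a gene, and both *Hoxa13* probes) on each array, as log2 signal minus the array's 75th percentile, for *Hoxa13* gRNAs (red circles), control (grey squares) and *Hottip* gRNAs (blue triangles), with short lines at the group means. On this scale both *Hoxa13* probes are low and overlap between the *Hoxa13*-labelled and the control arrays, and stand high on the 4 *Hottip*-labelled arrays.

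The arrays differ in scale and in evenness, and both touch the results. The signal at the 75th percentile was 586 to 1086 on the *Hoxa13*-labelled arrays and 1096 to 2380 on the control arrays, and between 35.5% and 41.4% of probes were above background on these 6. The median difference of the tested genes was 0.16 on the 75th percentile scale, -0.05 after quantile normalization and -0.07 in the log2 values that the authors deposited, so gene classes are given on all 3 scales. The gap depended on brightness: probes with a mean level over 5 had a median difference of 1.00 on the 75th percentile scale, and 0.04 and 0.01 on the other 2. *Hoxa13*-labelled replicates 1 and 2 were on 1 slide, and replicate 3 shared a slide with all control and *Hottip*-labelled arrays. The slide can therefore be separated from the treatment only through replicate 3.

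**Figure D2:**
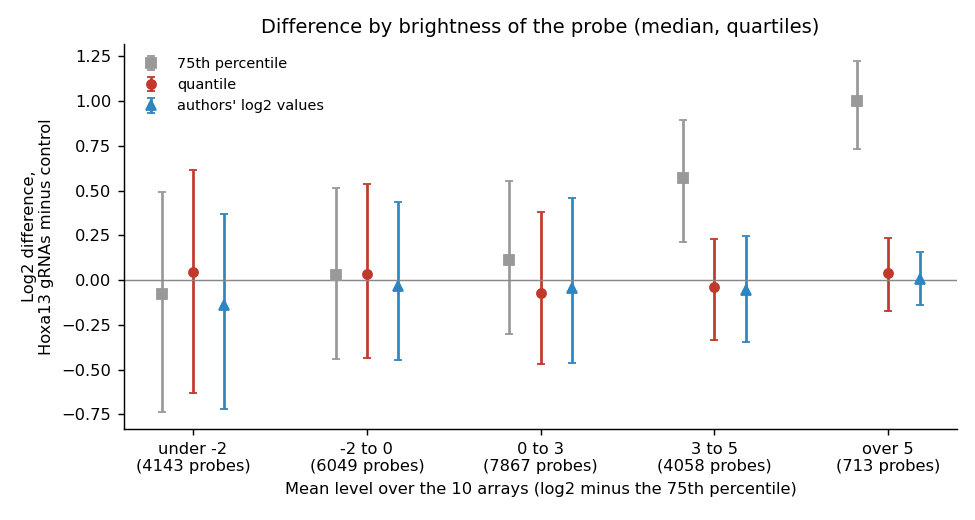
Log2 difference of *Hoxa13* gRNAs minus control for tested probes binned by their mean level over the 10 arrays, on 3 scales (points, medians; bars, lower to upper quartile). On the 75th percentile scale (grey) the median climbs from -0.08 in the dimmest bin to 1.00 in the brightest, while it stays between -0.14 and 0.05 on the other 2 scales.

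Brightness also varied across the surface of the arrays. Areas were called uneven where the median of an 11 by 11 spot area differed by more than 1 (log2) between the group means. They held 2284 of the 22830 tested probes (10.0%) but 23 of the 40 called probes. The last 48 of the 384 rows of the arrays held 16.8% of tested probes and 21 calls, 5 higher and 16 lower. In rows 337 to 360 the local median was -2.58 and -1.13 on control replicates 1 and 2 and between -4.40 and -3.49 on the 3 *Hoxa13*-labelled arrays. Calls are therefore described separately for even and uneven areas, and the part that position played in the second kind was not tested.

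**Figure D3:**
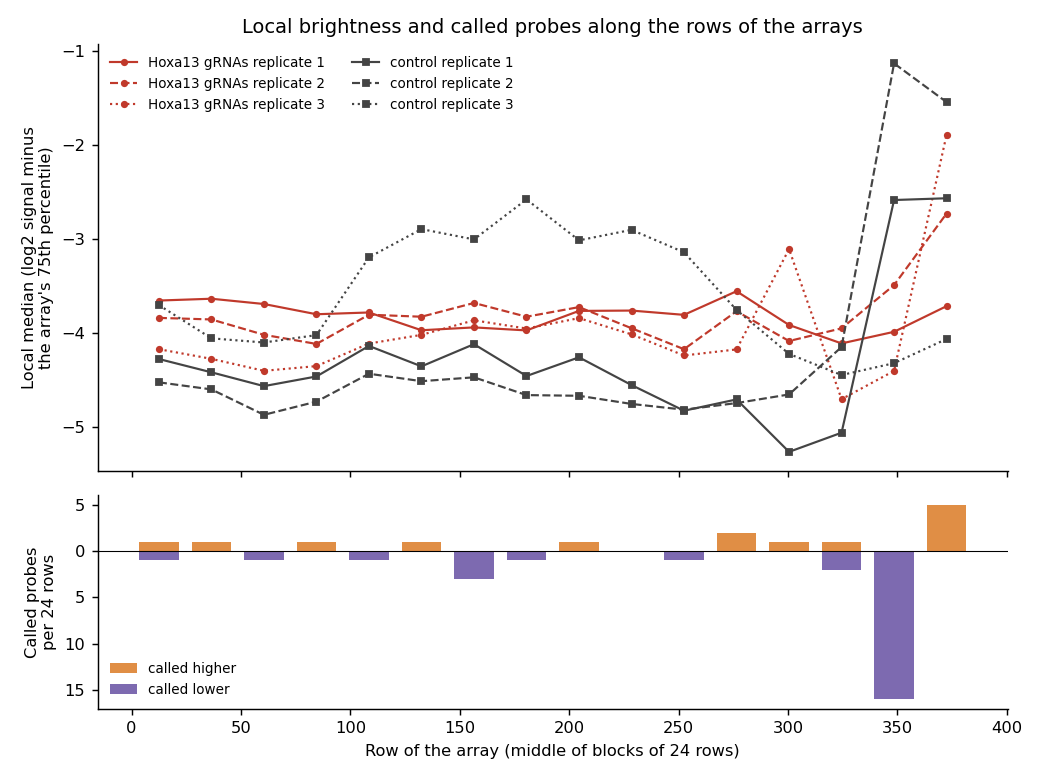
Top, median local brightness of each array (log2 signal minus the array's 75th percentile) in blocks of 24 rows, for the 3 *Hoxa13*-labelled (red) and the 3 control arrays (grey). Bottom, number of probes called higher (up) and lower (down) in the same blocks. The tallest bar, 16 probes called lower, stands in the block where 2 of the control arrays brighten.

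In all, 14 probes were called higher (0.0613% of those tested) and 26 lower (0.114%) on the *Hoxa13*-labelled arrays at an adjusted p under 0.05. After quantile normalization these counts were 15 (0.0657%) and 30 (0.131%), and on the authors' log2 values 13 (0.0569%) and 25 (0.11%). There were 14 probes called on all 3 scales, of which 11 lay in even areas. A symbol could be given to 8 of the 14 higher and 13 of the 26 lower probes. The split between the directions turned on how the arrays were corrected and scaled: it was 31 higher and 12 lower with normexp background correction, 24 and 20 with the local median subtracted, and 0 and 8 with a 75th percentile taken over spots not marked as outliers. When only probes above background on all 6 arrays were tested 0 were called by limma, with 1538 at an unadjusted p under 0.05.

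The genes that rose in even areas of the arrays were *Acta1*, *Acta2*, *Tagln* and *Cd82*. The first 3 are genes of the actin contractile apparatus: *Acta1* encodes skeletal muscle alpha actin, *Acta2* smooth muscle alpha actin and *Tagln* transgelin (SM22), an actin binding protein. *Cd82* encodes a tetraspanin of the plasma membrane. Their differences lay between 2.13 and 3.52 on the log2 scale, and the 6 arrays did not overlap for any of them.

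*Acta1* measured 0.21, -0.70 and -0.60 on the *Hoxa13*-labelled arrays and -3.36, -4.65 and -3.64 on the control arrays. All 3 treated arrays were above background and 1 control array was. No *Hottip*-labelled array was, so *Acta1* was tested only through its bright group. The difference was 3.52 (SE 0.45, adjusted p = 0.0158), and it was 3.51 after quantile normalization (adjusted p = 0.00274) and 2.47 on the authors' values (adjusted p = 0.0356).

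*Tagln* was above background on all 6 arrays. It measured 2.33, 2.13 and 2.25 against -0.33, -0.59 and 0.01. The difference was 2.54 (SE 0.36, 5.83-fold, adjusted p = 0.0258), 2.35 after quantile normalization and 2.44 on the authors' values, each called.

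*Acta2*, spotted 10 times on each array, measured -0.15, -0.53 and -0.24 against -2.64, -3.10 and -2.68, with 1 control array above background. It was above background on no *Hottip*-labelled array, so it too was tested only through its bright group. The difference was 2.50 (SE 0.36, 5.66-fold, adjusted p = 0.0275). It was 2.62 after quantile normalization (adjusted p = 0.00274) and 2.20 on the authors' values, where it was not called (adjusted p = 0.0633).

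*Cd82* has 3 probes in different places on the array, and each was higher on every *Hoxa13*-labelled array. The brightest measured -0.61, -1.43 and -1.15 against -4.14, -4.48 and -3.81, where no control array was above background, so that the rise was at least 5.29-fold (difference 3.08, SE 0.38, adjusted p = 0.0133). The "at least" sets the treated mean against the lowest signal that was above background on each control array. The second probe rose by at least 2.92-fold (difference 2.13, SE 0.34, adjusted p = 0.0452), and the third, which was above background on too few arrays to be tested, differed by 2.52. The called probes were above background on the 3 *Hoxa13*-labelled arrays and on no other array, so they were tested only through their bright group.

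With the slide as a block the differences of these 4 genes were 3.28 (*Acta1*), 2.56 (*Tagln*), 2.57 (*Acta2*) and 2.99 (*Cd82*), all of about the same size, but no longer called (adjusted p = 0.0961, 0.101, 0.0999 and 0.0712). Without 1 array at a time the *Acta1* difference lay between 3.14 and 3.78 and the *Tagln* difference between 2.40 and 2.70, and each of the 4 genes was called in 1 or 2 of these 6 fits.

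Fibroblasts also express *Acta2* and *Tagln*, so fibroblast markers were read beside them. Of 10 fibroblast markers 4 were tested and 0 called, with a median of 0.71, 0.71 and 0.17 on the 3 scales, above that of all genes. *Col1a2*, a chain of type I collagen, measured -2.33, -2.66 and -2.94 against -4.73, -5.17 and -4.31, a difference of 2.09 (SE 0.36) without overlap on any of the 3 scales. It was above background on 1 of the 6 arrays and so was not tested across genes. *Col1a1*, the other chain, differed by 0.92 (SE 1.05) with overlap, and *Col3a1*, of type III collagen, by 0.90 (SE 1.19). *Postn*, *Lum*, *Pdgfrb* and *Twist2* were above background on none of the 6 arrays, and *Pdgfrb* differed by -0.78. The part of fibroblast RNA in the rise of the contractile genes was not tested.

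Most other contractile genes were not called. In the list of actin and cytoskeleton genes, 13 of 13 were tested and 2 were called higher, *Acta2* and *Tagln*. Its median was 0.41, 0.08 and -0.01 on the 75th percentile, quantile and authors' scales, beside 0.16, -0.05 and -0.07 for all 12377 tested genes. *Myl9*, the regulatory light chain of smooth muscle myosin, measured 2.16, 1.60 and 0.72 against -0.04, -0.15 and 0.25, which do not overlap (difference 1.47, SE 0.42, adjusted p = 0.373). *Cnn2*, a calponin, gave opposite answers from its 2 probes, 1.33 and -1.90, neither of them called. *Tpm1* and *Tpm2*, the tropomyosins, differed by 0.10 and -0.45. *Actb*, the cytoplasmic beta actin, differed by 0.41, -0.30 and -0.09 on the 3 scales.

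A smooth muscle list was drawn up after these values were seen. Of its 18 genes 13 were tested and 2 called, with a median of 0.12, -0.05 and -0.01. Its summed level, in units of the 75th percentile signal, was 51.1 to 84.3 on the *Hoxa13*-labelled and 38.5 to 47.8 on the control arrays. The sum includes the called *Acta2* and *Tagln* and was taken on this scale alone. There, probes of any class with a mean level over 5 had a median difference of 1.00, against 0.04 and 0.01 on the other 2 scales. *Cnn1*, calponin 1, stood above background on each of the 6 arrays with a difference of 0.12 (SE 0.37), while *Des* (desmin) differed by 0.08, *Cald1* (caldesmon) by -0.30 and *Smtn* (smoothelin) by -0.26. *Myh11*, the smooth muscle myosin heavy chain, was above background on none of the 6 arrays. Of 20 striated muscle genes, listed at the same time, 10 were tested and 2 called, *Acta1* and *Tnnt3*. The median of this list was -0.34, -0.23 and 0.10. *Myh3*, the embryonic myosin heavy chain, differed by -1.60 and *Mylpf*, a fast muscle light chain, by -0.79, neither called. *Tnnt3* (fast troponin T) lies in an uneven area, where the local median was 1.27 higher on the *Hoxa13*-labelled arrays, and its second probe differed by -0.25.

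Serum response factor (SRF) is the textbook regulator of actin and smooth muscle genes through a promoter element called the CArG box, and its genes were looked up for that reason, after the values were seen. In the list of SRF, its cofactors and immediate early targets 17 of 21 genes were tested and 0 called, with a median of 0.25, -0.11 and -0.04. *Srf* itself measured 1.52, 1.62 and 1.40 against 1.01, 0.28 and 0.86 (difference 0.80, adjusted p = 0.468). The cofactor gene *Mrtfb* differed by -0.87 (adjusted p = 0.474). The CArG box was searched for on both strands of RefSeq promoter windows of GRCm38.p6, from 250 bases before to 50 after the start. A match was found in 1.63% of the 32851 windows, and in those of *Acta1*, *Myl9* and *Cnn2* but not of *Acta2* or *Cd82*. The matches in these 3 genes read CC, then only A or T, then GG. A CArG box that departs from the searched pattern, or lies outside the window, would have been missed. The absence of a match at *Acta2* or *Cd82* therefore does not show that these genes lack the element. *Tagln* has no promoter window and was not searched. These stretches of 30 bases are shown on the strand of the gene, with the match in capitals, to show how the element lies beside the genes that did and did not pass the test.
*Acta1*, 73 bases before the start, chr8:123894829-123894858, minus strand: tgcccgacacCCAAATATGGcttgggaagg
*Myl9*, 161 bases before the start, chr2:156775293-156775322, plus strand: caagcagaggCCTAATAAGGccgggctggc
*Cnn2*, 56 bases before the start, chr10:79988534-79988563, plus strand: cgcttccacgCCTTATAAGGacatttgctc
Of these 3 genes 1, *Acta1*, was called.

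Among the genes that fell in even areas were *Tlx2*, *Nrn1*, *Cxcl14*, *Rapgefl1*, *Gadl1*, *Tnfaip6*, *Aqp5* and *Sync*. None of these 8 is a member of the gene lists used here. *Tlx2* encodes a homeobox factor of neural crest derivatives, *Nrn1* neuritin of growing neurites, *Cxcl14* a chemokine, *Tnfaip6* a hyaluronan binding protein of inflamed tissue, *Aqp5* a water channel of glands and lung, and *Sync* an intermediate filament protein of muscle. Another 3 probes without a gene symbol fell there too. All 12 probes that fell in even areas were above background on the 3 control arrays, and none was above background on more than 1 of the *Hoxa13*-labelled arrays. The 3 control arrays alone are enough to meet the filter for testing, so these probes could be tested through their bright group alone.

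*Tlx2* measured -3.01, -3.33 and -4.43 on the *Hoxa13*-labelled arrays and 3.28 and 3.25 on control replicates 1 and 2, its spot on control replicate 3 being left out as an outlier. It fell by at least 85.5-fold (difference -6.85, SE 0.54, adjusted p = 0.00215), the largest fall among the called probes. *Tlx2* was above background on no *Hoxa13*-labelled or *Hottip*-labelled array, so it was tested only through the control arrays, where it is bright.

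*Nrn1* measured -4.26, -2.34 and -2.03 against 1.74, 1.32 and 1.77, and 1 of the treated arrays was above background (difference -4.49, SE 0.56, adjusted p = 0.0151). *Cxcl14* measured -4.35, -4.60 and -4.84 against -0.00, -0.26 and -0.17, a fall of at least 8.35-fold (difference -4.45, SE 0.37, adjusted p = 0.00215).

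These 3 and *Rapgefl1* and *Gadl1* were called on all 3 scales. *Rapgefl1*, a guanine nucleotide exchange factor-like gene, fell by at least 5.12-fold (difference -3.55, SE 0.38, adjusted p = 0.00799). *Gadl1*, a decarboxylase of taurine synthesis, fell by at least 4.27-fold (difference -3.51, SE 0.41, adjusted p = 0.0102), and its other 2 probes, too dim to be tested, differed by -2.77 and -0.69.

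*Tnfaip6*, *Aqp5* and *Sync* were called on 2 of the 3 scales. *Tnfaip6* fell by at least 4.33-fold at the probe that was called (-4.53, -4.40 and -4.56 against -1.06, -1.11 and -1.10), while its brightest probe overlapped between the groups (difference -2.04, SE 1.59, adjusted p = 0.601) and the third differed by -1.41. *Aqp5* differed by -2.77 (SE 0.42, adjusted p = 0.0335) and by -2.48 at a second probe that was not called (adjusted p = 0.128). *Sync* fell by at least 2.99-fold (difference -2.76, SE 0.38, adjusted p = 0.0205).

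*Tlx2* and *Cxcl14* were called in all 6 fits that left out 1 array, *Rapgefl1* in 4, *Nrn1* in 3, *Gadl1* in 2 and *Tnfaip6*, *Aqp5* and *Sync* in 1. With the slide as a block *Tlx2* (adjusted p = 0.00929), *Cxcl14* (0.0153), *Rapgefl1* (0.0210) and *Gadl1* (0.0265) were still called. *Nrn1*, *Tnfaip6*, *Aqp5* and *Sync* were not, with adjusted p between 0.0610 (*Aqp5*) and 0.130 (*Sync*).

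**Figure D4:**
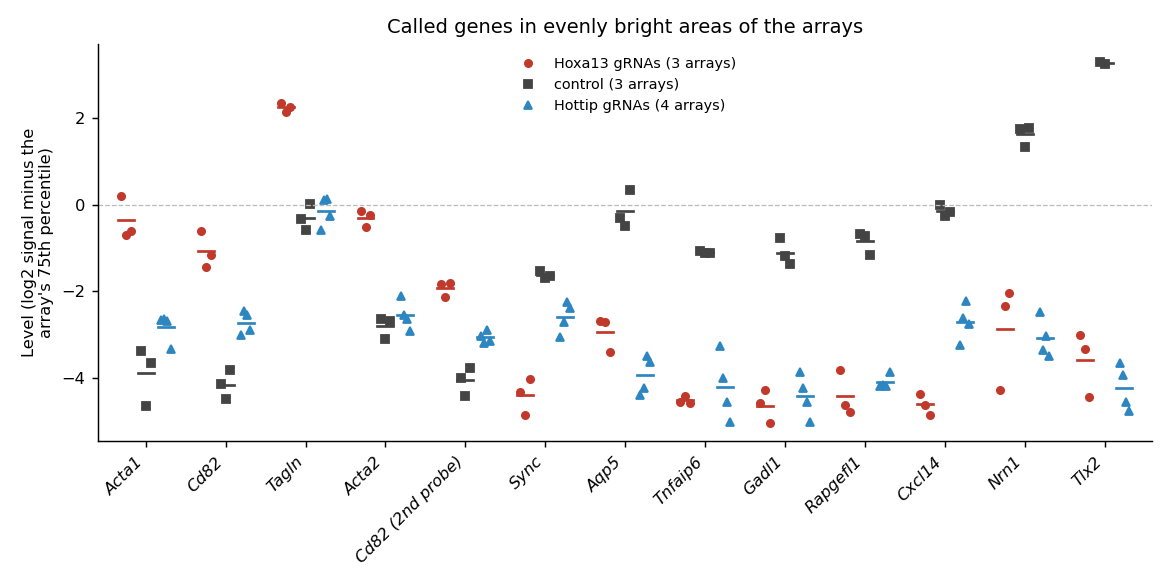
Level of the probes named in the text and called in even areas on each array, as log2 signal minus the array's 75th percentile, ordered by the difference, with short lines at the group means. The 5 probes on the left are higher on all 3 *Hoxa13*-labelled arrays (red circles) than on the 3 control arrays (grey squares) and the 8 on the right lower. For those 8, the *Hottip*-labelled arrays (blue triangles) also lie below the control, against whose arrays the probes were picked.

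The called genes were also set against the *Hottip*-labelled arrays. The comparisons with the control share its 3 arrays, whereas the difference between the guide pools leaves out their levels. That test still uses the *Hoxa13*-labelled arrays by which the probes were called, and its estimate of the spread takes in the control arrays. *Acta1* measured -2.66, -2.64, -2.69 and -3.32 on the *Hottip*-labelled arrays, and was 2.46 higher on the *Hoxa13*-labelled ones (SE 0.42, adjusted p = 0.0380). *Tagln* was 2.39 higher (SE 0.33, adjusted p = 0.0187) and *Acta2* 2.25 higher (SE 0.33, adjusted p = 0.0233). *Cd82* lay between, at -3.01, -2.45, -2.53 and -2.88, and its difference of 1.65 was not called (SE 0.35, adjusted p = 0.0976). With the slide as a block 0 of the called probes passed the test between the guide pools. Of the *Hoxa13*-labelled arrays, replicate 3 alone was on the slide of the *Hottip*-labelled arrays.

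None of the 26 probes called lower differed between the guide pools at an adjusted p under 0.05 (limma), the smallest being 0.0503 for *Cxcl14*, and 3 did at an unadjusted p. *Tlx2* measured -3.65, -3.93, -4.54 and -4.74 on the *Hottip*-labelled arrays, 0.63 from the *Hoxa13*-labelled mean (SE 0.45). *Nrn1* measured -2.48, -3.34, -3.03 and -3.48, and *Cxcl14* -3.24, -2.61, -2.22 and -2.74. For all 12 probes in even areas the *Hottip*-labelled mean lay below the control mean. They were picked by a difference from these same control arrays, so this is not a separate result. The share of all tested probes that lay below the control is not given here. *Hoxa13* itself differed by -7.96 between the pools (SE 0.55, adjusted p = 0.000105), lower on the *Hoxa13*-labelled arrays.

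The calls in uneven areas were 9 higher and 14 lower. The 5 largest rises, *Zfp11* (7.89), *Kirrel3* (7.82) and 3 probes without a symbol, lay within 4 rows of each other near the edge of the arrays, in rows 375 to 378. *Kirrel3*, a synaptic adhesion gene, measured 6.82 and 5.76 on replicates 2 and 3 with replicate 1 left out as an outlier, against -2.0, -1.37 and -1.23. Its other 2 probes, elsewhere on the array, were above background on no array of the 6 and differed by 0.92 and 0.41. The second probe of *Zfp11*, a zinc finger gene, stood above background on each of the 6 arrays with a difference of -0.30. With the local median subtracted, the *Kirrel3* and *Zfp11* differences were 4.67 and 3.78 and neither was called.

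Of the 14 lower calls in uneven areas 4 have a symbol, *Olfr617* (an olfactory receptor gene, -5.23), *Nfkbiz* (an inhibitor of NF-κB, -4.26), *Cdc42ep2* (a Cdc42 effector, -4.12) and *4930426D05Rik* (-3.99). All 4 lie in rows 346 to 354, and each spot was left out on control replicate 3. With the local median subtracted the 4 differences were -2.64, -2.28, -1.60 and -1.02, of which that of *Olfr617* was called.

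By kind of probe, 21 of 16091 tested probes for mRNA accessions were called (0.131%), 13 of 2939 for intergenic regions (0.442%), 6 of 3328 for other transcripts (0.18%) and 0 of 472 for non-coding RNA accessions (0%). Of the 13 intergenic probes 2 lay in even areas. They fell by at least 7.35-fold (mm9 chr8:74473445-74496948) and 6.62-fold (mm9 chr6:57695178-57695277), and both sit in the last 48 rows.

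Another 33 probes were called only after quantile normalization or on the authors' values, 14 of them in even areas and 5 of these with a symbol. *Tgfbi*, an extracellular matrix protein induced by TGF-beta, was above background on all 6 arrays and measured 1.51, 2.34 and 1.74 against 3.74, 4.14 and 4.57 (difference -2.28, SE 0.41, adjusted p = 0.0871, but 0.0159 and 0.0356 on the other 2 scales). *Hmgn3*, a nucleosome binding protein gene, measured 2.54, 1.80 and 1.82 against 0.27, 0.03 and -0.05 and was called after quantile normalization alone (difference 1.79, adjusted p = 0.0225). *Ica1* (difference -1.76) and *Gja4* (1.65) were called on the same scale, and *Rangrf*, near the edge of the arrays, on the authors' values.

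Size alone names more genes than the test. A set of 388 probes was higher and 264 lower by more than 1 on all 3 scales with no overlap between the 6 arrays. Those with a symbol number 289 and 178, and 96 and 46 of them lie in uneven areas. The 15 largest rises by this measure all lie in rows 367 to 380. Restricting to named probes in even areas before row 330, to probes with all 6 values and to differences over 1 after the local median was subtracted, a choice made after the values were seen, left 35 higher and 74 lower.

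Among these, *Plac8* was higher by 2.63 (1.99, 0.60 and 0.02 against -1.59, -2.04 and -1.66, adjusted p = 0.0782), and by 0.82 at its second probe. *Cnpy3*, a chaperone gene, differed by 2.22, *Gna15*, a G protein subunit gene, by 2.20, *Dlk2*, a relative of the Notch inhibitor *Dlk1*, by 2.61 and *Nr2f1*, an orphan nuclear receptor gene, by 1.72. Among the lower, *Lrrn1*, a leucine-rich repeat membrane protein gene, differed by -2.78, *Hilpda*, a lipid droplet protein gene, by -2.67, *Sema4d*, a semaphorin gene, by -2.36 and *Gli3*, a Hedgehog pathway transcription factor gene, by -1.98. None of these 9 was called on any of the 3 scales.

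Gene classes turned on the scale used. Over all 12377 tested genes the groups did not overlap, in the higher direction, for 16.9% on the 75th percentile scale, 8.52% after quantile normalization and 6.58% on the authors' values, and in the lower direction for 7.47%, 10.6% and 8.34%. On the 75th percentile scale the called genes that are members of a list were the actin and muscle genes named above and *Olfr617*. The other 45 lists held 0, with 102 of their 543 tested genes at an unadjusted p under 0.05 in limma. Over all 22830 tested probes the same fit gave 2503. Probes of any class with a mean level over 5 had a median difference of 1.00 on this scale. The larger share in the lists therefore does not by itself set them apart.

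The bright housekeeping classes had medians of 0.60 or more on the 75th percentile scale and close to 0 on the other 2. Ribosomal protein genes, all 84 of which were tested, had a median of 0.96, 0.01 and -0.03 on the 3 scales, with 30 genes higher without overlap on the first scale and 6 and 8 on the others. The mitochondrial respiratory chain (16 genes) gave 0.85, -0.07 and -0.08, glycolysis (16) 0.69, -0.21 and -0.05, the citric acid cycle (13) 0.70, 0.13 and -0.04, splicing and RNA processing (16) 0.66, -0.05 and -0.06, and the proteasome (13) 0.60, -0.19 and -0.13. *Ncl* (nucleolin) kept part of its difference, at 6.29, 5.77 and 5.21 against 4.06, 4.41 and 3.96, a difference of 1.61 on the first scale and of 0.58 and 0.54 on the others. In the ribosomal protein list *Rpl7l1*, a relative of *Rpl7*, ran the other way on every scale, at -1.47, -1.86 and -1.59, without being called.

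The ES cell character of the samples was checked with 12 identity genes, and all 12 were above background on every one of the 6 arrays. The list had a median of 0.77, 0.00 and -0.09, with 0 called. *Nanog*, a pluripotency factor, measured 5.30, 6.64 and 4.97 against 3.81, 3.79 and 4.08, a difference of 1.74, 0.91 and 0.38 on the 3 scales (adjusted p = 0.339 on the first). *Esrrb* differed by 1.33, 0.49 and 0.02 and *Sall4* by -0.94, -1.24 and -0.82. The naive pluripotency list (14 genes) gave 0.59, -0.14 and -0.06, and the list of formative and epiblast priming genes (12) 0.16, -0.01 and 0.04, with 0 called in either. Of 10 fibroblast markers, 2 to 4 were above background on an array, and of 7 blood cell markers 2 to 5. The fibroblast markers are described beside the contractile genes above. Their summed level, in units of the 75th percentile signal, was 1.54 to 2.66 on the *Hoxa13*-labelled and 1.1 to 2.97 on the control arrays.

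Lists of differentiated fates held 0 called genes. Trophoblast markers lay above the median of all genes on each scale, with a median of 0.75, 0.63 and 0.54 over the 9 of 12 genes tested, and 4, 2 and 1 higher without overlap. Over all tested genes the share higher without overlap was 16.9%, 8.52% and 6.58%, so these small counts do not set the list apart. *Krt8* and *Krt18*, the paired keratins of simple epithelia, differed by 1.44 and 0.92 (adjusted p = 0.456 and 0.470), *Tfap2c* by 1.30 and *Cdx2*, above background on 1 of the 6 arrays, by 0.75. Among the remaining tested members *Krt7*, above background on none of the 6 arrays, differed by 1.09 and *Krt19* by 0.43. *Ascl2*, *Gata3* and *Tead4* differed by 0.09, -0.002 and -0.22. *Hand1* and *Plac1* were above background on none. Neurotransmission genes gave 1.03, 1.01 and 0.51 over 5 of 12 genes tested, none of them free of overlap on the first scale. The list of neural precursor genes (5 tested) gave 0.13, 0.01 and -0.23, that of Nodal and mesendoderm genes (7) 0.54, 0.24 and -0.04, and that of primitive and visceral endoderm genes (12) -0.22, -0.28 and -0.15. In the last, *Dab2* differed by -2.80 with overlapping groups, 1 control array measuring 6.27 beside -0.38 and -0.92 on the others.

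Genes linked to *Hoxa13* in the limb were mostly dim: 8 of 14 were above background on none of the 6 arrays, 6 were tested and 0 called. *Fgf8*, a growth factor of the limb ridge and the gastrulating embryo, differed by -1.43, -1.50 and -1.10 with no overlap on the first scale, and *Bmp7* by 0.16, 0.42 and 0.43. The TALE homeobox genes, whose products bind DNA together with Hox proteins, were tested in all 10 cases and gave a median of 0.21, 0.22 and 0.11, with *Meis2* at 0.80 and *Pbx3* at -0.65 on the first scale. Genes flanking the Hoxa cluster (6 of 9 tested) gave 0.24, -0.15 and -0.45, with *Hibadh* at 0.81 and *Skap2* at -0.06. In the Hoxb, Hoxc and Hoxd clusters 2, 1 and 3 genes could be tested and 0 were called.

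Signalling and stress lists held 0 called genes as well. In the FGF and ERK list (14 tested, median 0.21, -0.11 and -0.26) *Spry2*, a feedback inhibitor of the pathway, measured 1.37 and -0.07, with replicate 3 left out, against 1.95, 1.63 and 2.45 (difference -1.36, adjusted p = 0.447). Among Wnt targets (7 tested) *Notum*, a secreted Wnt inhibitor, measured 4.56, 4.09 and 3.19 against 2.19, 2.25 and 2.18 and differed by 1.74, 1.36 and 1.07 (adjusted p = 0.266 on the first scale). The p53 targets (15 tested) gave a median of -0.02, -0.18 and -0.17, with *Mdm2*, the p53 inhibitor, at -0.84 and *Pmaip1* at -0.77. The list of LIF and STAT3 genes (11) gave -0.04, -0.08 and -0.09, BMP targets (10) 0.37, 0.07 and 0.01, the integrated stress and unfolded protein list (14) 0.27, -0.19 and -0.22, heat shock genes (10) 0.66, 0.08 and -0.17, and interferon and DNA sensing genes (8) 0.11, -0.11 and -0.17. *Bag3*, a co-chaperone gene, differed by -1.26 and *Isg15*, an interferon response gene, by 1.05, with neither called.

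**Figure D5:**
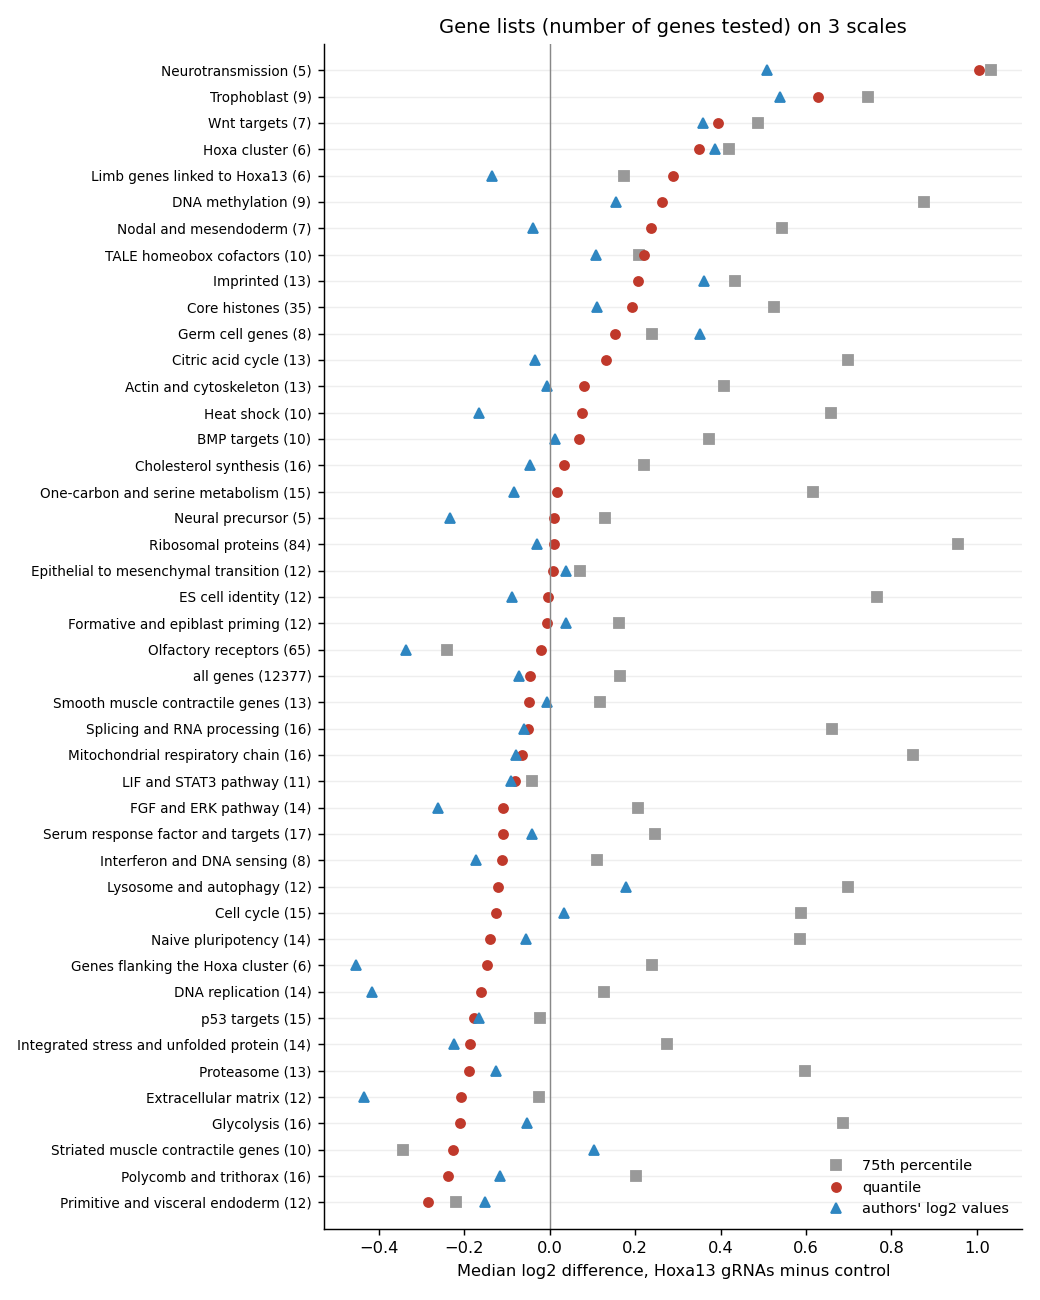
Median log2 difference of *Hoxa13* gRNAs minus control for each gene list with at least 5 tested genes (number in brackets), on the 75th percentile scale (grey squares), after quantile normalization (red circles) and on the authors' log2 values (blue triangles). Ribosomal, respiratory chain and ES cell identity genes lie at 0.77 to 0.96 on the first scale and within 0.1 of 0 on the other 2. The neurotransmission, trophoblast, Wnt target, imprinted and core histone lists are among several that lie above 0 on all 3.

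Chromatin and cell cycle lists held 0 called genes. Of 19 Polycomb and trithorax genes 16 were tested, with a median of 0.20, -0.24 and -0.12 and 0 called. *Cbx2*, a chromobox gene, measured -0.37, 0.08 and 0.19 against 0.77, 0.52 and 0.73, which do not overlap (difference -0.70, adjusted p = 0.479), and *Wdr5*, a subunit of the MLL complexes, differed by -0.56. DNA methylation genes (9) gave 0.88, 0.26 and 0.16, the cell cycle list (15) 0.59, -0.13 and 0.03, DNA replication (14) 0.13, -0.16 and -0.42, and core histones (35) 0.52, 0.19 and 0.11. Imprinted genes (13) gave 0.43, 0.21 and 0.36, germ cell genes (8) 0.24, 0.15 and 0.35, and the 2-cell-like list (4) -0.22, -0.38 and -0.32. Its *Zfp352*, a marker of that state, differed by 2.23, 2.26 and 2.55 on the 3 scales without being called (adjusted p = 0.425), and *Zscan4c* differed by -0.38.

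In metabolism and the matrix 0 genes were called. One-carbon and serine metabolism (15) gave 0.62, 0.02 and -0.09, cholesterol synthesis (16) 0.22, 0.03 and -0.05, lysosome and autophagy (12) 0.70, -0.12 and 0.18, the extracellular matrix (12) -0.03, -0.21 and -0.44, and epithelial to mesenchymal transition (12) 0.07, 0.01 and 0.04. *Mthfd1l*, of the mitochondrial folate pathway, differed by -1.59 at one probe and 0.61 at the other. Of 1063 olfactory receptor genes 65 were tested, 819 were above background on none of the 6 arrays, and 1, *Olfr617*, was called.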

How the data were processed

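Labelled RNA of 10 samples was hybridised to one-colour Agilent arrays. The authors deposited scanner files whose spot intensity had been background-subtracted and detrended by Agilent Feature Extraction per the file headers (array design of build mm9), and a table of log2 values, for which the submitters' notes name limma. Those log2 values rank as the median signal minus local background and share their quantiles across arrays. Other steps are not given in the sources used here.

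From the processed intensity, control spots and outlier spots were left out, log2 was taken, each array's 75th percentile over all non-control spots was subtracted, and the spots of a probe were averaged. Of 55681 probes, 22830 were tested, each marked as well above background by the scanner software on 3 or more arrays. The groups were fitted over all 10 arrays with limma 3.58.1 in R 4.3.3, since all arrays then share 1 estimate of the spread, and probes were called at a Benjamini-Hochberg adjusted p under 0.05. The same fit was run after quantile normalization and on the authors' log2 values, and was tried on simulated data. Of 50 simulated probes given a true log2 change of 1, 4 were called. At changes of 2, 3 and 4 it was 23, 41 and 46 of 50, and 7 calls were false. Arrays have no read depth, and their number limits the precision. Replicates are labelled biological, with no culture named, so p-values measure the spread between these samples.

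Accessions in the files gave 27650 probes a symbol through RefSeq (GRCm38.p6). A gene stands for its probe with the highest mean level. Text names came from a rule: every Hoxa probe, called probes with a symbol, in each list up to 4 genes with the largest quantile-normalized difference among those above background on all 6 arrays, and up to 15 a direction that differed by over 1 on all 3 scales. Other genes were named after their values were seen. The comparison and the lists were chosen with earlier results of these data known, and the smooth muscle, striated muscle and serum response factor lists, the even and uneven areas and the CArG search after the values were seen. Alternatives covered normalization, background, filter, local median, slide, samples fitted, variance model, pairing and each replicate left out. Some of the genes and guides are not reported here, though counts include them.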

Additional observations from a re-analysis of the deposited data

Results flagged for a closer look

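Of the 40 probes called against the control, 9 also differed between the *Hoxa13*-labelled and the *Hottip*-labelled arrays in limma's test of that difference (adjusted p under 0.05), and all 9 were higher on the *Hoxa13*-labelled arrays. In even areas these were *Acta1* (2.46), *Tagln* (2.39) and *Acta2* (2.25). In uneven areas they were *Kirrel3* (7.86), *Zfp11* (7.60), the probes A_55_P2022614 (7.64) and A_55_P2082324 (7.25), an intergenic probe on chromosome 11 (7.59) and the probe of the transcript ENSMUST00000044500 (2.36). With the slide as a block 0 of the 9 passed this test. The probes had been picked by the same *Hoxa13*-labelled arrays, and the number that differed among all tested probes is not given here.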

How the results depend on the processing

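Against the 40 probes called, 8 were called with the 75th percentile over spots not marked as outliers, 16 without the filter on dim probes, 16 without the uneven areas, 22 with only the 6 arrays fitted, 25 with an intensity trend in eBayes, 74 with the slide as a block and 88 with median centring. With probes above background on all 6 arrays the count was 0 (smallest adjusted p 0.309). After quantile normalization the slide as a block gave 104 and leaving out uneven areas 17. On the authors' values they gave 129 and 18, and no filter gave 4. The cause of these moves was not tested beyond the fewer probes or arrays that some of them use. Leaving out 1 array gave between 3 (without *Hoxa13* replicate 3, or without control replicate 2) and 130 calls (without control replicate 3), with 5, 13 and 8 without *Hoxa13* replicates 1 and 2 and control replicate 1. After quantile normalization the range was 17 to 73, with 24, 18 and 72 among the others, and on the authors' values 0 to 62, with 1, 8 and 14 among them.

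The brighter *Hoxa13* probe, 0.50 on the 75th percentile scale, differed by 1.195 on the authors' values (adjusted p = 0.246 in limma), 1.09 with normexp background correction (adjusted p = 0.447) and 0.32 with the local median subtracted, and lay between -0.035 (without control replicate 1) and 1.15 (without control replicate 3) when 1 array was left out. The second probe turned to -0.13 with the local median subtracted, to -0.12 without *Hoxa13* replicate 1 and to -0.13 without control replicate 1, and was 0.69 without control replicate 3. Neither probe was called under any alternative.

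Of the 40 called probes, the 9 that differed between the guide pools became 5 with median centring, 4 after quantile normalization and with the local median subtracted, 3 without the filter and without uneven areas, and 2 with the 75th percentile over spots not marked as outliers. They became 0 with the slide as a block, on the 1 slide with all 3 groups, and with probes above background on all 6 arrays, and 0 to 10 when 1 array was left out.

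With the replicate number as a block 0 probes were called, also after quantile normalization and on the authors' values (1709 at an unadjusted p under 0.05 in limma on the 75th percentile scale). The numbers do not pair the samples: deviations of same-numbered arrays correlated at -0.06, 0.11 and -0.09.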
